A study of Mus musculus with 6 samples.

Results

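Histone methylation and acetylation enzymes are the proteins that write and erase these marks on the tails of histones. They were examined as 52 listed genes, chosen by name as writers and erasers of histone marks other than methylation of H4 lysine 20. Of these, 51 had a row in all 6 gene count tables (Setd1b was not analysed here), and 50 of the 51 had enough reads to be tested, among 10512 tested genes of 23284 listed. Hdac7, the remaining one, had 0 to 3 reads per library. All are called enzymes below for brevity, and whether any of them also acts on H4 lysine 20 was not examined.

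RNA with poly(A) tails was sequenced from C57BL/6 mouse erythroblasts, which are immature red cells that still hold a nucleus, at E10.5, after live cells positive for Ter119 and CD71 had been sorted. The null group held 3 libraries with floxed Setd8 alleles and Cre recombinase driven from the Epor locus (genotype SETD8fl/fl EpoR Cre), so that deletion is limited to cells that use this erythroid promoter. The controls were control replicates 1 and 3, which carried Cre with intact Setd8 (Setd8 +/+ EpoRCre), and control replicate 2, which carried floxed alleles without Cre (Setd8 fl/fl EpoR WT). Setd8 encodes the enzyme that adds the first methyl group to lysine 20 of histone H4, and the comparison asked here is how the other histone enzymes were expressed without it. The labels do not say whether a library pools embryos. The tissue is named as liver in the sample labels and as blood in the design text.

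As background, a methyl or acetyl group on a histone lysine changes which proteins bind the nucleosome and how tightly DNA is packed. Methylation of H3 at lysine 27 by PRC2 (Polycomb repressive complex 2) and at lysine 9 by the Suv39h, Ehmt and Setdb enzymes goes with silent chromatin, and acetylation and methylation of H3 at lysine 4 or 36 with active genes. Maturing erythroblasts shut down most of their chromatin and condense the nucleus, a process in which loss of histone acetylation by deacetylases takes part.

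The 250 bases upstream of the RefSeq start site are shown for 3 subunits of PRC2, which did not move together, and for Kdm5b, which had the largest ratio of the tested members. They were read 5′ to 3′ from RefSeq's GRCm38.p6 table, at chr6:47595031-47595280 on the minus strand for Ezh2, chr7:89980977-89981226 on the minus strand for Eed, chr11:79992856-79993105 on the plus strand for Suz12 and chr1:134559928-134560177 on the plus strand for Kdm5b. Capitals mark matches, on either strand, to a site of E2F factors (TTTCCCGC, TTTCGCGC, TTTGCCGC or TTTGGCGC), to the cell cycle element CHR (TTTGAA or TTCGAA), or to a GATA site (TGATAA or AGATAA). The reverse complements were searched too, so that TTCAAA is a CHR match.
Ezh2: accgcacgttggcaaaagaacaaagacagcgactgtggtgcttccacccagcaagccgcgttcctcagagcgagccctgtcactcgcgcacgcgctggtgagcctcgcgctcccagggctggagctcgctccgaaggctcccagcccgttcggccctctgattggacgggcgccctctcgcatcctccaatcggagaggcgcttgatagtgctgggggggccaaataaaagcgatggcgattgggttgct
Eed: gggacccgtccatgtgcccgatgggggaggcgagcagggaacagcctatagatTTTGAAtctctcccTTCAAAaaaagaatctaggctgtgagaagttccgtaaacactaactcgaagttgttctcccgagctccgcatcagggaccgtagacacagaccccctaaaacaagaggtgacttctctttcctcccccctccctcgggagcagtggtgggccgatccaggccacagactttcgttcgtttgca
Suz12: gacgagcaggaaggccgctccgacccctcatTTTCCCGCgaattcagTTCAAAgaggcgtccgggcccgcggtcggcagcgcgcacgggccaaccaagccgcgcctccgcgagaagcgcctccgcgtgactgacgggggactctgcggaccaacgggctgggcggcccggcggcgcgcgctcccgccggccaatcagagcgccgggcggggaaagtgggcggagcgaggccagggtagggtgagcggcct
Kdm5b: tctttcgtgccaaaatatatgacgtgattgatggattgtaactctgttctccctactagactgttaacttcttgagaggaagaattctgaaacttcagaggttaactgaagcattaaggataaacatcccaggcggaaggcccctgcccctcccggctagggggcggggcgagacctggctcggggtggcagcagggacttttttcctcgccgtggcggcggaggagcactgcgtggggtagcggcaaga
Suz12 held 1 E2F and 1 CHR match, Eed held 2 CHR matches, and the windows of Ezh2 and Kdm5b held none of the letters searched. Of 32841 windows of 250 bases in the table, 1.86% held an E2F match, 17.1% a CHR match and 16.6% a GATA match. Windows were read for 38 members, of which 3 held an E2F match (Suz12, Suv39h1 and Kat2a), 5 a CHR match and 3 a GATA match. A match is a description of the letters and not of binding.

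The libraries fall into a lettered and an unlettered title set, by a trailing letter in the sample titles, which was absent for control replicates 1 and 2 and null replicate 1 and present for control replicate 3 and null replicates 2 and 3. Setd8, the targeted gene, stood in the unlettered libraries at 73.9 and 74.8 CPM (counts per 1000000, TMM-scaled) for controls against 48.9 for null replicate 1, and in the lettered ones at 203 for the control against 100.3 and 96.3. It fell by 0.83 in log2 units (SE 0.17, adjusted p = 0.00911, edgeR), and these counts cover the whole gene and not the floxed exons alone. Assigned reads ranged from 7756940 to 21434719 per library, where 3 reads equal 0.387 and 0.140 counts per 1000000 without TMM scaling. With that scaling 3 reads in control replicate 2, the deepest library, equal 0.160 CPM. The 51 genes took 0.159% to 0.350% of the assigned reads. Control replicate 1 was the shallowest. Y-linked transcripts were found in control replicate 1 and every null library and stood at most at 0.479 CPM in control replicates 2 and 3, so sex and genotype overlap in part. The erythroid list of 10 markers, globins included, summed to 111100 to 264050 CPM. Of the 10, 3 were lower and 0 higher in null cells (edgeR), where 4.16% and 8.65% of all tested genes were. The lower ones were Tfrc (log2 ratio -0.92, SE 0.16), Epor (-1.08, SE 0.29) and Hba-x (-0.60, SE 0.17). Of 10 macrophage markers 6 were tested and 3 were higher in null cells, where 8.65% of all tested genes were. The macrophage list summed to 32.5, 42.8 and 92.3 CPM in null libraries against 2.22, 1.86 and 10.6 in controls. Endothelial markers (8 genes, with Emcn and Cldn5 at 0 in every library) summed to 0.3195 to 1.49 CPM in controls and 5.74 to 20.04 in null libraries. Of these, 2 of 2 tested were higher, where 8.65% of all tested genes were. Megakaryocyte markers summed to 14.3 to 35.7 CPM in controls and 42.0 to 83.5 in null libraries. Of 5 tested, 1 was higher (Itga2b, log2 ratio 1.82, SE 0.27), where 8.65% of all tested genes were. Itga2b alone gave 36.6, 67.1 and 50.1 CPM in null replicates 1 to 3, most of these sums. The other tested markers, Gp9, Pf4, Gp1bb and Vwf, did not pass, with log2 ratios of -0.37, 0.096, 1.14 and 0.41. Gp9 was lower in every null library than in every control. The granulocyte and mast cell list, with Elane and Cpa3 at 0 in every library, reached 66.3 CPM in null replicate 3, mostly from Mpo, and 0 to 9.35 in the other libraries. The hepatoblast (Alb at 0 in every library) and mesenchymal (Dcn at 0) lists summed to at most 4.21 and 3.18 CPM in any library. Whether other cell types were present, and what part they had in the enzyme values, was not tested.

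Of the 50 tested enzyme genes, 4 were higher and 3 were lower in null than in control cells with the title set as a term of the model (edgeR's quasi-likelihood test, adjusted p under 0.05 over all tested genes). The genes that rose were Kdm5b, Kdm6b, Smyd2 and Eed, and those that fell were Ezh2, Whsc1 and Smyd5. Among all tested genes 8.65% were higher and 4.16% lower, so these counts, 8% and 6% of the enzymes, lay near the background. At unadjusted p under 0.05, 6 enzymes were higher and 13 lower, where 16.4% and 11.5% of all tested genes were. DESeq2 with the same terms gave 4 higher and 9 lower (12% and 8.39% of all tested genes). EdgeR with RLE scaling gave 3 and 4 (8.3% and 4.95%), edgeR without globin genes 3 and 5 (8.11% and 5.13%), and edgeR with every gene that had a read 5 and 7 (5.99% and 3.8%), so the split depended on the tool and scaling. The genes that DESeq2 added to the lower ones were Suz12, Rbbp4, Dot1l, Prmt5, Carm1 and Hdac6. With group as the only term 0 enzymes passed (by edgeR, 3 higher and 5 lower at unadjusted p under 0.05, where 10.6% and 4.99% of all tested genes were), against 1.14% of all tested genes higher and 0.00951% lower. With a term for Y-linked transcripts none of the 7 genes passed (adjusted p from 0.0736 for Eed to 0.361 for Smyd5, edgeR). Carm1 was lower in that fit, as the only enzyme to pass (log2 ratio -2.51, adjusted p = 0.0156), where 1.53% of all tested genes were higher and 0.59% lower. That fit parts group from the Y-linked term only through control replicate 1, the shallowest library and the only control with the term. Carm1 stood there at 31.0 CPM, against 7.51 in control replicate 2 and 6.19 in null replicate 1. Calls gained or lost in that fit therefore cannot be read as an adjustment for sex. When control replicate 1, 2 or 3 was left out, 1, 1 and 2 enzymes were higher, where 5.52%, 5.66% and 5.63% of all tested genes were, and 3, 2 and 0 were lower, where 1.98%, 1.92% and 1.62% were. When null replicate 1, 2 or 3 was left out, 1, 1 and 3 enzymes were higher (1.49%, 4.74% and 7.91% of all tested genes) and 0, 2 and 6 lower (0.368%, 2.13% and 6.68%). For the fits by edgeR with 0 lower, 7 enzymes without control replicate 3 and 6 without null replicate 1 were lower at unadjusted p under 0.05, where 9% and 6.98% of all tested genes were. Of the 50 log2 ratios of null to control 32 were below 0, as were those of 5004 of the 10512 tested genes. The median log2 ratio of null to control was -0.26 over the 50 enzymes and 0.044 over all tested genes. With group alone these medians were -0.055 and 0.13. The enzyme median was -0.13 without null replicate 1 and -0.43 without control replicate 3.

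**Figure D1:**
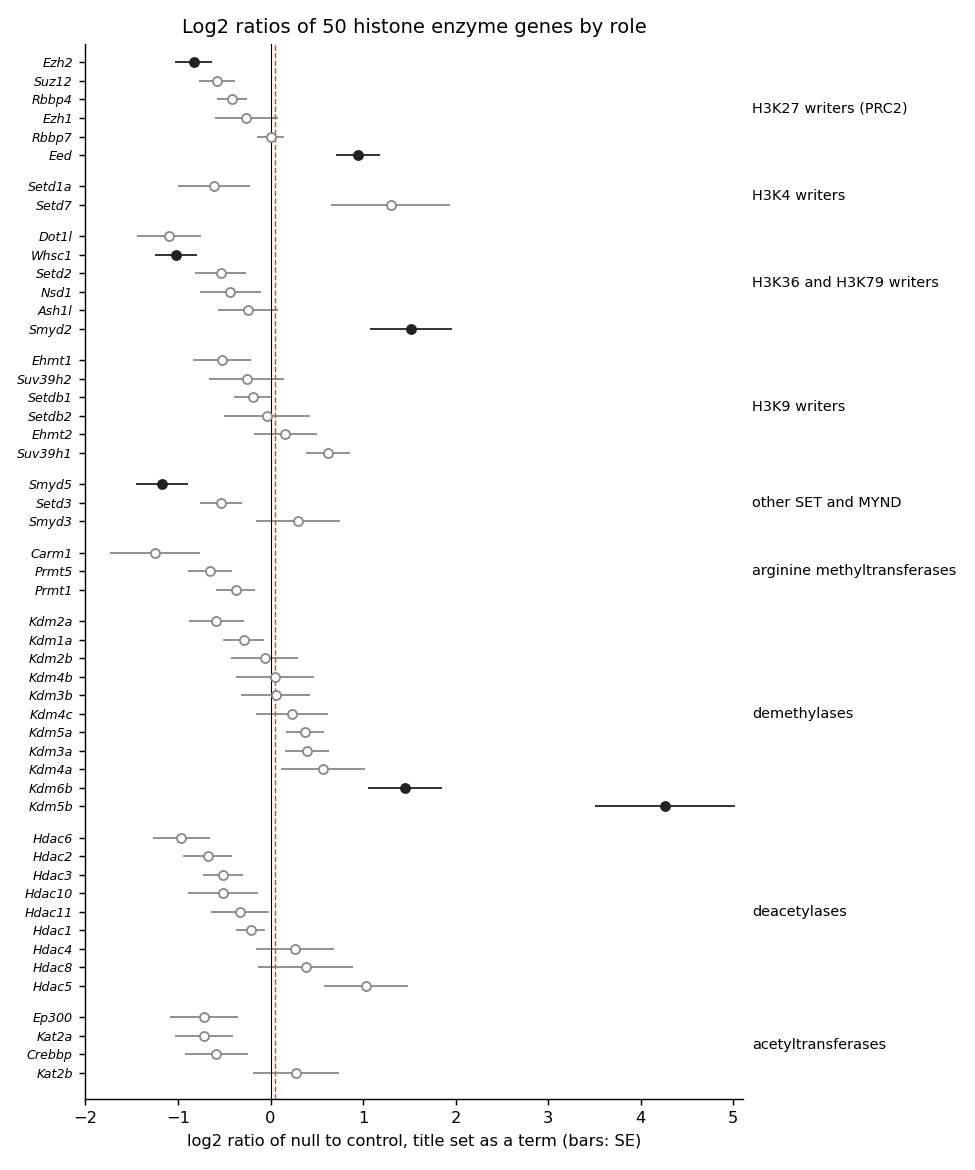
Log2 ratio of null to control with SE (horizontal axis) for the 50 tested enzyme genes grouped by role, from the fit with title set as a term. Filled points passed, the dashed line is the median of all tested genes (0.044), and Kdm5b lies far to the right at 4.26.

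The title sets share no library, and each held null and control cells, so the ratio could be read in each separately. In both sets the log2 ratio was below 0 for 25 of the 50 genes and above 0 for 15, where 32.5% and 36.2% of all tested genes were lower and higher in both. The median log2 ratio of the enzymes was -0.41 for the unlettered and -0.16 for the lettered set, against 0.082 and 0.000 for all tested genes. Every null library lay below every control library for 7 enzymes (Ezh2, Whsc1, Smyd5, Dot1l, Prmt5, Kdm2a and Hdac6) and above for 2 (Eed and Kdm5b), which is 14% and 4%, where the share over all tested genes was 9.16% below and 14.9% above. A test of the set by group interaction called 0 enzymes (edgeR quasi-likelihood, 4 at unadjusted p under 0.05, or 8% where 7.21% of all tested genes were, and 0 with RLE scaling) and 0.00951% of all tested genes.

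**Figure D2:**
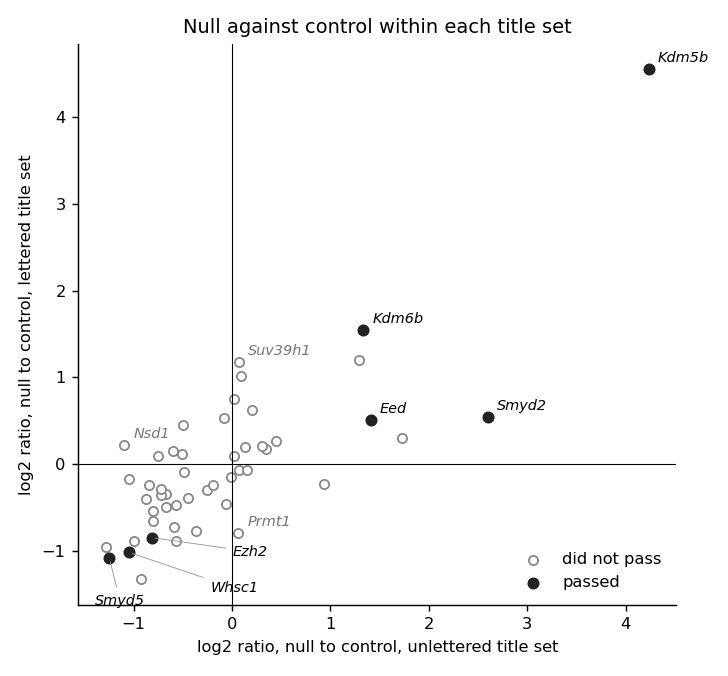
Each point is 1 of 50 enzyme genes, with the log2 ratio of null to control in the unlettered set on the horizontal axis (2 control libraries and 1 null) and in the lettered set on the vertical axis (1 control and 2 null). Filled points passed with title set as a term and lie in the quadrants where both sets have the same sign, and Nsd1, Suv39h1 and Prmt1 are named as genes whose sets lay far apart.

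Within PRC2, the complex that methylates H3 lysine 27, the catalytic subunit fell while a core subunit rose. Ezh2, the catalytic subunit, stood in the unlettered set at 58.2 and 59.9 CPM for controls against 33.5 for null replicate 1, and in the lettered set at 86.5 for the control against 42.4 and 54.4. All null values lay below all control values. It fell by 0.83 in log2 units (SE 0.20, adjusted p = 0.0195, edgeR quasi-likelihood). Eed, the subunit that binds the methylated lysine and stimulates the enzyme, stood at 29.0 and 39.4 CPM in unlettered controls against 90.1 for null replicate 1, with 44.5 for the lettered control against 61.8 and 64.6 for its null libraries. All null values lay above all control values, and the log2 ratio was 0.95 (SE 0.24, adjusted p = 0.0229, edgeR). Suz12, the scaffold that holds the complex together, was at 42.8 and 53.0 CPM in unlettered controls against 36.8 for null replicate 1, with 109 for the lettered control against 60.3 and 67.9 for its null libraries. Its null values lay below the controls of their own set, with overlap between sets, and its log2 ratio of -0.58 (SE 0.20, adjusted p = 0.0778, edgeR) did not pass, although DESeq2 called it lower (adjusted p = 0.0288).

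Rbbp4, a histone chaperone shared with deacetylase complexes, stood at 549 and 555 CPM in unlettered controls against 403 for null replicate 1, with 349 for the lettered control against 228 and 311 for its null libraries. Its log2 ratio of -0.41 (SE 0.16, adjusted p = 0.125, edgeR) missed the threshold, with an adjusted p of 0.0405 by DESeq2 and 0.0329 by edgeR without null replicate 3. Its relative Rbbp7, on the X chromosome, had a log2 ratio of -0.00020 (SE 0.14), and its values were ordered by title set and not by genotype, from 219.9 to 235 CPM in the unlettered and 466 to 495 in the lettered libraries. Ezh1, the second catalytic subunit, was between 8.63 and 16.8 CPM in all libraries and did not pass (log2 ratio -0.26, SE 0.34). Of the 6 PRC2 genes, 1 rose, 1 fell and 4 did not pass, where 8.65% of all tested genes rose and 4.16% fell.

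The calls of Ezh2 and Eed depended on single libraries, and both ended with the Y-linked term (adjusted p = 0.249 and 0.0736, edgeR, with log2 ratios of -0.80 and 1.45). Ezh2 lost its call without control replicate 2 (adjusted p = 0.0511, edgeR), null replicate 2 (0.0547), control replicate 3 (0.122) or null replicate 1 (0.152), with log2 ratios of -0.81 to -0.85 in these fits. Eed lost it without null replicate 2 (adjusted p = 0.0581, log2 ratio 0.98), control replicate 2 (0.0653, 0.95), control replicate 1 (0.0803, 0.77) or null replicate 1 (0.457, 0.50). Eed overlaps the transcript E230029C05Rik on the opposite strand in the GENCODE annotation of GRCm38, and reads from both cannot be told apart where the counting did not use strand.

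**Figure D3:**
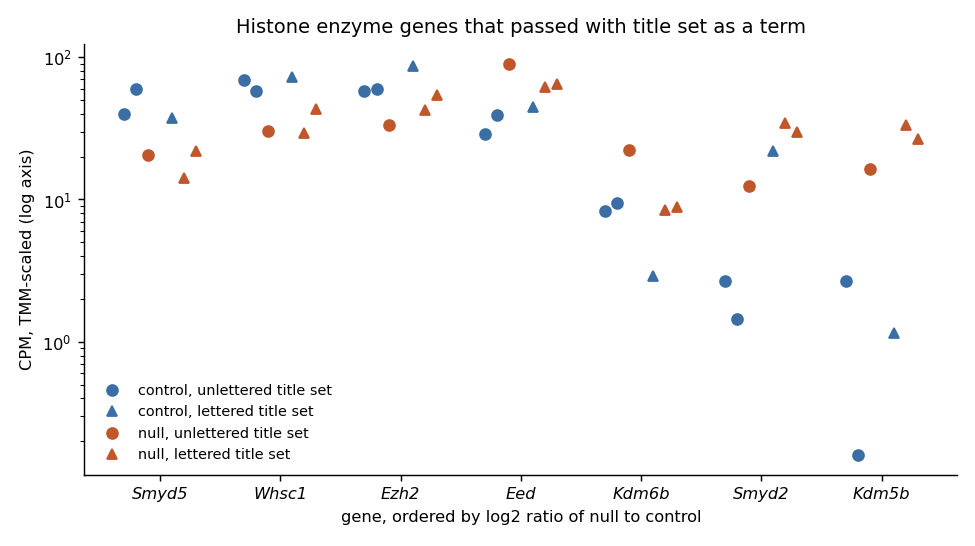
TMM-scaled CPM (log axis) of the 7 enzyme genes that passed, 1 point per library, in blue for control and orange for null, circles for the unlettered and triangles for the lettered title set. Null points lie below all control points for Smyd5, Whsc1 and Ezh2 and above them for Eed and Kdm5b, while Kdm6b and Smyd2 separate only within each set.

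Among the writers of H3 lysine 36 and lysine 79 methylation, Whsc1 fell and Smyd2 rose. Whsc1, also named Nsd2, which dimethylates lysine 36, stood at 68.6 and 57.4 CPM in unlettered controls against 30.3 for null replicate 1, with 72.1 for the lettered control against 29.3 and 43.2 for its null libraries. The groups did not overlap, and it fell by 1.02 in log2 units (SE 0.23, adjusted p = 0.0132, edgeR quasi-likelihood). Without control replicate 3 its adjusted p was 0.0959 and without null replicate 1 it was 0.144, at log2 ratios of -1.07 and -1.001. With the Y-linked term it was 0.116. Whsc1 overlaps Nelfa (Whsc2 in the count tables) on the opposite strand in the GENCODE annotation. Smyd2, which methylates lysine 36 and also non-histone proteins such as p53, had 18 and 27 reads (2.67 and 1.44 CPM) in unlettered controls against 12.5 CPM for null replicate 1, with 21.9 for the lettered control against 34.2 and 29.9 for its null libraries. Its log2 ratio was 1.52 (SE 0.44, adjusted p = 0.0447, edgeR), made up of 2.60 for the unlettered and 0.55 for the lettered set. It did not pass with RLE scaling (adjusted p = 0.0505) or without globin genes (0.0568), nor without null replicate 2 (0.0944, log2 ratio 1.65), control replicate 2 (0.130, 1.12), control replicate 1 (0.132, 1.44) or null replicate 1 (0.616, 0.54). Without control replicate 3 its log2 ratio was 2.65.

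Dot1l, the methyltransferase of H3 lysine 79, was at 20.6, 23.3 and 22.6 CPM in control replicates 1 to 3 and at 11.5, 6.42 and 12.4 in null replicates 1 to 3. The groups did not overlap, yet its log2 ratio of -1.10 (SE 0.35, adjusted p = 0.0586, edgeR) lay just short of the threshold. It passed with RLE scaling (adjusted p = 0.0493), without globin genes (0.0479), by DESeq2 (0.0189) and without null replicate 3 (0.0265). Setd2, the trimethylase of lysine 36, stood at 45.1 and 41.6 CPM in unlettered controls against 24.0 for null replicate 1, with 21.2 for the lettered control against 16.3 and 19.8 for its null libraries, and did not pass (log2 ratio -0.54, SE 0.27). Nsd1, another dimethylase of lysine 36, had ratios of opposite sign in the sets, from 76.9 and 92.1 to 39.3 CPM in the unlettered and from 25.8 to 25.2 and 35.9 in the lettered set, and did not pass (log2 ratio -0.43, SE 0.33). Its interaction log2 value of 1.35 (SE 0.46, adjusted p = 0.609, edgeR) did not pass either. Ash1l, also a lysine 36 writer, was at 22.7, 35.8 and 19.5 CPM in controls and 18.8, 22.1 and 21.2 in null libraries, with a log2 ratio of -0.24 (SE 0.32). Dot1l is given in full because its groups did not overlap, a choice made after its values were seen. Of 6 genes in this class 1 rose, 1 fell and 4 did not pass, where 8.65% of all tested genes rose and 4.16% fell.

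The H3 lysine 4 writers on the enzyme list had 2 tested genes and 0 passed (by edgeR, 0 at unadjusted p under 0.05, 0 by DESeq2). Among all tested genes 12.8% passed in either direction by edgeR. Outside the enzyme list, Mll3, also a writer of this mark, was lower in null cells and is given below. Its relatives Mll1, Mll2 and Wbp7 did not pass. Setd1a, the catalytic subunit of a COMPASS complex, was at 21.0 and 22.5 CPM in unlettered controls against 11.8 for null replicate 1, with 10.6 for the lettered control against 11.0 and 5.74 for its null libraries. Setd7, which adds 1 methyl group to lysine 4, was sparse at 1.40 to 4.37 CPM in controls and 2.58 to 9.17 in null libraries, with a log2 ratio of 1.30 (SE 0.64, adjusted p = 0.216, edgeR). Smyd5, a SET and MYND domain protein, stood at 40.01 and 59.3 CPM in unlettered controls against 20.5 for null replicate 1, with 37.6 for the lettered control against 14.2 and 21.9 for its null libraries. The groups did not overlap, and Smyd5 fell by 1.17 in log2 units (SE 0.28, adjusted p = 0.0196, edgeR). It did not pass when control replicate 2 (adjusted p = 0.0657), control replicate 3 (0.0990) or null replicate 1 (0.198) was left out. Setd3, whose best known substrate is actin, stood at 11.7 to 22.2 CPM in the unlettered and 66.8 to 88.9 in the lettered libraries, and its log2 ratio of -0.53 (SE 0.23) did not pass. Smyd3, at 0.30 (SE 0.46), did not pass.

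None of the 6 H3 lysine 9 writers on the enzyme list passed (edgeR), where 12.8% of all tested genes did in either direction. By edgeR 1 was higher and 0 lower at unadjusted p under 0.05, where 16.4% and 11.5% of all tested genes were. DESeq2 called 0, where 12% were higher and 8.39% lower. Suv39h1, an X-linked trimethylase of heterochromatin, stood at 143 and 168 CPM in unlettered controls against 162 for null replicate 1, with 194 for the lettered control against 452 and 422 for its null libraries. The null libraries were thus high in the lettered set and within the control range in the unlettered set. Its log2 ratio was 0.62 (SE 0.24, adjusted p = 0.115, edgeR) over both sets, with 0.067 for the unlettered and 1.17 for the lettered libraries. The interaction was 1.12 on the log2 scale (SE 0.27, adjusted p = 0.568, edgeR) and did not pass. Without null replicate 1 the ratio of Suv39h1 was 1.17 (adjusted p = 0.0226), which leaves the lettered set as the only comparison. Its relative Suv39h2 was between 7.03 and 14.0 CPM in all libraries and did not pass (log2 ratio -0.26, SE 0.40).

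Setdb1, which methylates lysine 9 at silenced repeats, stood at 75.6, 80.8 and 84.5 CPM in controls and 54.9, 93.1 and 90.6 in null libraries, with overlapping groups and a log2 ratio of -0.19 (SE 0.20). It overlaps Cers2 (Lass2 in the count tables) on the opposite strand. Ehmt1, a dimethylase of lysine 9, was at 22.1, 31.5 and 14.0 CPM in controls and 16.5, 11.7 and 10.4 in null libraries, with a log2 ratio of -0.52 (SE 0.31). Its partner Ehmt2 had 0.16 (SE 0.34) and Setdb2 had -0.040 (SE 0.46). These genes did not pass and their groups overlapped.

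The 3 arginine methyltransferases on the enzyme list all had ratios below 0, as did 5004 of the 10512 tested genes. None of the 3 passed (edgeR), where 12.8% of all tested genes did in either direction. By edgeR 2 were lower at unadjusted p under 0.05, where 11.5% of all tested genes were. DESeq2 called 2 lower, where 8.39% were. Outside this list Prmt3 was lower by edgeR, as given below. The log2 ratios of Prmt6 (-1.30), Prmt7 (-0.53), Prmt2 (0.026) and Prmt10 (0.12) did not pass. Prmt5, which symmetrically dimethylates histone arginines, stood at 72.5 and 108 CPM in unlettered controls against 58.6 for null replicate 1, with 71.3 for the lettered control against 34.6 and 54.1 for its null libraries. Its groups did not overlap, and its log2 ratio was -0.66 (SE 0.24, adjusted p = 0.0935, edgeR; 0.0483 by DESeq2; 0.0303 by edgeR without null replicate 3). Prmt1, the main asymmetric arginine methyltransferase, was at 77.7 and 100.3 CPM in unlettered controls against 92.2 for null replicate 1, with 155 for the lettered control against 88.9 and 89.4 for its null libraries (log2 ratio -0.38, SE 0.21). Carm1, a coactivator that methylates histone H3, was at 31.0 and 7.51 CPM in unlettered controls against 6.19 for null replicate 1, with 71.8 for the lettered control against 31.1 and 44.0 for its null libraries. The unlettered controls of Carm1 lay far apart, and its log2 ratio of -1.25 (SE 0.49, adjusted p = 0.128, edgeR) did not pass, while without control replicate 2 it was -1.53 (adjusted p = 0.0242). Carm1 overlaps Yipf2 on the opposite strand in the GENCODE annotation.

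Of 11 demethylases on the enzyme list, 2 rose and 0 fell (edgeR quasi-likelihood), where 8.65% and 4.16% of all tested genes did. At unadjusted p under 0.05 edgeR also had 2 higher and 0 lower, where 16.4% and 11.5% of all tested genes were. DESeq2 called 2 higher and 0 lower (12% and 8.39% of all tested genes). Kdm5b, which removes methyl groups from H3 lysine 4, had 18, 3 and 25 reads in control replicates 1 to 3 and 281, 653 and 515 in null replicates 1 to 3. In CPM this was 2.67 and 0.160 in unlettered controls against 16.4 for null replicate 1, with 1.16 for the lettered control against 33.5 and 26.6 for its null libraries. All null values lay above all control values by a wide gap. Kdm5b rose from 1.33 ± 1.26 to 25.5 ± 8.61 CPM (SD, n = 3 per group), a log2 ratio of 4.26 (SE 0.76, adjusted p = 0.00527, edgeR quasi-likelihood), with 4.24 for the unlettered and 4.55 for the lettered set. It had the largest ratio of the 50 enzymes in either direction, and its adjusted p was 0.0822 with group alone. Without control replicate 3 its adjusted p was 0.0871 and without null replicate 1 it was 0.119, at log2 ratios of 3.81 and 4.68, and with a term for Y-linked transcripts the log2 ratio was 2.32 (adjusted p = 0.142). The macrophage, endothelial and megakaryocyte sums, given above, were also higher in every null library than in every control library, and their part in the Kdm5b value was not tested. In null replicates 1 to 3 the megakaryocyte sum, mostly from Itga2b, was 42.0, 83.5 and 69.7 CPM. The macrophage sum was 32.5, 42.8 and 92.3 CPM and the endothelial sum 20.04, 10.1 and 5.74.

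Kdm6b, which removes methyl groups from H3 lysine 27 and so opposes PRC2, stood at 8.30 and 9.37 CPM in unlettered controls against 22.4 for null replicate 1, with 2.88 for the lettered control against 8.47 and 8.79 for its null libraries. The groups overlapped across the sets and separated within each. The log2 ratio was 1.46 (SE 0.40, adjusted p = 0.0341, edgeR), 1.33 and 1.54 in the unlettered and lettered sets. Leaving out any single library ended this call, with adjusted p from 0.0518 without null replicate 3 through 0.0667 without null replicate 2, 0.0830 and 0.0874 without control replicates 2 and 1, and 0.144 without control replicate 3 to 0.294 without null replicate 1. The log2 ratio in these fits ran from 1.32 to 1.57.

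Kdm5a, the paralog of Kdm5b with the same substrate, did not pass, at 77.4 and 70.1 CPM in unlettered controls against 101 for null replicate 1, with 37.5 for the lettered control against 53.8 and 37.5 for its null libraries (log2 ratio 0.37, SE 0.21). Kdm3a, an eraser of lysine 9 methylation, was at 39.4, 61.4 and 45.3 CPM in controls and 56.7, 76.2 and 63.9 in null libraries (log2 ratio 0.40, SE 0.24) and did not pass. Kdm1a, the lysine 4 demethylase that works with the erythroid repressor Gfi1b, stood at 13.7 to 19.4 CPM in the unlettered and 65.4 to 70.1 in the lettered libraries, and its log2 ratio was -0.29 (SE 0.22). Kdm2a, an eraser of lysine 36 methylation, did not overlap between groups, at 23.7, 18.9 and 23.3 CPM in controls and 13.2, 14.8 and 18.4 in null libraries, and did not pass (log2 ratio -0.59, SE 0.30). The other 5 demethylases, Kdm2b, Kdm3b, Kdm4a, Kdm4b and Kdm4c, had log2 ratios from -0.065 to 0.57 and did not pass.

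None of the 9 tested deacetylases on the enzyme list passed (edgeR), where 12.8% of all tested genes did in either direction. By edgeR 1 was higher and 3 lower at unadjusted p under 0.05, where 16.4% and 11.5% of all tested genes were. DESeq2 called 0 higher and 1 lower, where 12% and 8.39% were. Hdac6, an X-linked deacetylase that acts mostly on tubulin and other proteins of the cytoplasm, was at 18.7, 25.9 and 21.998 CPM in controls and 10.9, 11.8 and 11.8 in null libraries. These groups did not overlap, and the log2 ratio was -0.97 (SE 0.31, adjusted p = 0.0621, edgeR; 0.0111 by DESeq2; 0.0481 without globin genes). Hdac1, a catalytic subunit of the corepressor complexes, stood at 174, 176 and 144 CPM in controls and 153, 109 and 136 in null libraries, with a log2 ratio of -0.22 (SE 0.16). Its paralog Hdac2 differed far more between sets than between groups, at 20.6 and 11.0 CPM in unlettered controls and 8.59 in the null library, against 126 in the lettered control and 78.9 and 96.2 in the null libraries (log2 ratio of null to control -0.68, SE 0.26, adjusted p = 0.115, edgeR). Hdac3, the enzyme of the NCoR complex, was at 46.2, 53.0 and 69.1 CPM in controls and 33.3, 42.0 and 58.7 in null libraries (log2 ratio -0.52, SE 0.22). Hdac5, which shuttles between nucleus and cytoplasm, was at 2.22 and 3.57 CPM in unlettered controls against 9.58 for null replicate 1, with 14.9 for the lettered control against 27.98 and 12.1 for its null libraries (log2 ratio 1.03, SE 0.45, adjusted p = 0.163, edgeR). Hdac4, Hdac8, Hdac10 and Hdac11 had log2 ratios from -0.51 to 0.38 and did not pass.

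Of the 4 acetyltransferases on the enzyme list 0 passed (edgeR), where 12.8% of all tested genes did in either direction. By edgeR 0 were higher and 1 lower at unadjusted p under 0.05, where 16.4% and 11.5% of all tested genes were. DESeq2 called 0, where 12% were higher and 8.39% lower. Of 7 further acetyltransferases tested outside this list, 1 was lower by edgeR (Myst3, given below), where 4.16% of all tested genes were. Ep300 and Crebbp, the paired coactivators p300 and CBP, stood at 13.3, 14.9 and 18.1 and at 33.2, 33.6 and 19.3 CPM in control replicates 1 to 3. In null replicates 1 to 3 they stood at 8.01, 8.88 and 14.7 and at 16.1, 22.2 and 13.2, with log2 ratios of -0.72 (SE 0.37) and -0.59 (SE 0.34). Kat2a, the GCN5 enzyme of the SAGA complex, was at 11.3 and 11.7 CPM in unlettered controls against 7.66 for null replicate 1, with 37.4 for the lettered control against 15.4 and 26.3 for its null libraries (log2 ratio -0.72, SE 0.32). Its paralog Kat2b was between 3.67 and 14.0 CPM and had a log2 ratio of 0.27 (SE 0.47). In each set the null libraries of Ep300 and Kat2a lay below their controls, and the groups overlapped across sets.

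Between the title sets, 15 of the 50 enzymes differed with group in the model, 11 higher and 4 lower in the lettered set (edgeR quasi-likelihood, adjusted p under 0.05), where 17.7% and 10.9% of all tested genes were higher and lower. Hdac2 differed most among them, by 3.18 in log2 units (SE 0.27), followed by Setd3 (2.38), Smyd2 (2.34), Carm1 (2.26) and Kdm1a (2.05). The genes lower in the lettered set were Kdm6b (-1.49), Kdm5a (-1.06), Nsd1 (-1.04) and Rbbp4 (-0.62). Of the 7 genes that passed between null and control, Smyd2 and Kdm6b were among these 15. The labels do not say what the letter stands for, and no cause of the split was tested.

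**Figure D4:**
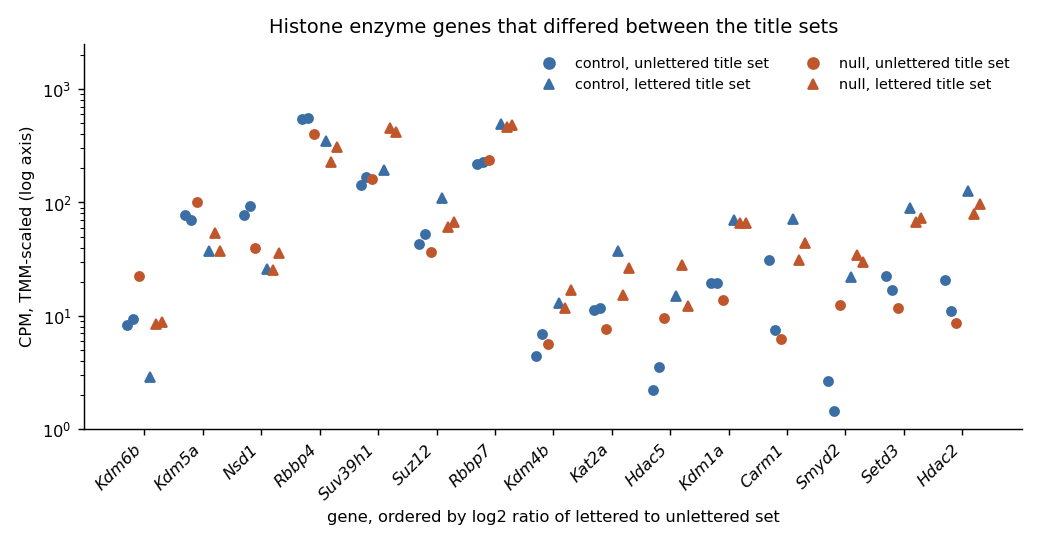
TMM-scaled CPM (log axis) of the 15 enzyme genes that differed between the title sets, ordered by the ratio of lettered to unlettered libraries, with colours and symbols for group and set. For Hdac2, Setd3 and Kdm1a the triangles of both groups lie together, well above the circles of both groups.

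The wider machinery was read from a list of 135 further enzymes, complex subunits and readers, of which 127 were tested. None was higher (edgeR quasi-likelihood), where 8.65% of all tested genes were, and 9 were lower, 7.09% where 4.16% were. At unadjusted p under 0.05 edgeR had 2 higher and 27 lower, where 16.4% and 11.5% of all tested genes were. DESeq2 called 1 higher (12% of all tested genes). By DESeq2 22 were lower (8.39% of all tested genes) and with RLE scaling 14 (4.95%). With group alone 0 passed (edgeR), where 1.14% of all tested genes were higher and 0.00951% lower. That fit had 1 higher and 9 lower at unadjusted p under 0.05, where 10.6% and 4.99% of all tested genes were. The count of lower genes was 5, 5 and 6 when control replicate 1, 2 or 3 was left out (1.98%, 1.92% and 1.62% of all tested genes). It was 2, 6 and 17 for null replicates 1, 2 and 3 likewise (0.368%, 2.13% and 6.68%). The median log2 ratio of the 127 genes was -0.32.

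The class of chromatin readers and their cofactors held 4 of the 9, of 16 tested, where 4.16% of all tested genes were lower. Cbx3, a heterochromatin protein that binds methylated lysine 9, was at 1340 and 1319 CPM in unlettered controls against 774 for null replicate 1, with 106 for the lettered control against 49.5 and 59.7 for its null libraries. It fell by 0.87 in log2 units (SE 0.15, adjusted p = 0.00359, edgeR), and the sets differed more than the groups. Trim28, the corepressor that recruits Setdb1, was at 118 and 85.7 CPM in unlettered controls against 44.9 for null replicate 1, with 164 for the lettered control against 112 and 104 for its null libraries (log2 ratio -0.89, SE 0.21, adjusted p = 0.0165, edgeR). Each null library of Trim28 lay below the controls of its own set. Wiz, a zinc finger partner of Ehmt1 and Ehmt2, was at 11.7, 10.8 and 27.1 CPM in control replicates 1 to 3 and 5.26, 9.55 and 7.80 in null replicates 1 to 3, without overlap (log2 ratio -1.37, SE 0.36, adjusted p = 0.0271, edgeR). Msh6, a mismatch repair protein that in human cells binds trimethylated lysine 36, was at 37.2, 34.0 and 86.3 CPM in controls and 23.1, 51.8 and 38.4 in null libraries, with overlap across sets (log2 ratio -0.78, SE 0.22, adjusted p = 0.0391, edgeR).

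Corepressor subunits held 2 of the lower genes, of 26 tested, where 4.16% of all tested genes were lower. Mbd3, a subunit of the NuRD deacetylase complex, was at 26.2 and 23.1 CPM in unlettered controls against 11.98 for null replicate 1, with 148 for the lettered control against 52.9 and 60.6 for its null libraries (log2 ratio -1.22, SE 0.20, adjusted p = 0.00285, edgeR). Sin3a, the scaffold that carries Hdac1 and Hdac2, was at 36.6 and 50.1 CPM in unlettered controls against 21.9 for null replicate 1, with 26.9 for the lettered control against 9.70 and 12.8 for its null libraries (log2 ratio -1.12, SE 0.27, adjusted p = 0.0196, edgeR). The other lower genes were enzymes. Myst3 (also Kat6a), an acetyltransferase, was at 31.1, 33.8 and 16.0 CPM in control replicates 1 to 3 and 16.6, 3.18 and 5.84 in null replicates 1 to 3 (log2 ratio -1.39, SE 0.34, adjusted p = 0.0218, edgeR). Prmt3, an arginine methyltransferase, was at 17.8, 8.57 and 74.5 CPM in controls and 1.99, 46.2 and 34.7 in null libraries (log2 ratio -1.68, SE 0.46, adjusted p = 0.0343, edgeR). For both, each null library lay below the controls of its own set and the groups overlapped across sets. Mll3 (also Kmt2c), a writer of lysine 4 methylation, was at 55.0, 40.4 and 39.8 CPM in controls and 24.0, 19.4 and 27.2 in null libraries, without overlap (log2 ratio -0.88, SE 0.26, adjusted p = 0.0462, edgeR). The 10 COMPASS subunits all had ratios below 0, as did 5004 of the 10512 tested genes, and their median was -0.72. Of the 10, 0 passed (by edgeR, 6 lower at unadjusted p under 0.05, where 11.5% of all tested genes were, and 5 lower by DESeq2, where 8.39% were). The 16 tested PRC1 subunits had a median of -0.17 and 0 passed (edgeR, 1 lower at unadjusted p under 0.05, where 11.5% of all tested genes were). DESeq2 called 0 of them lower, where 8.39% were.

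**Figure D5:**
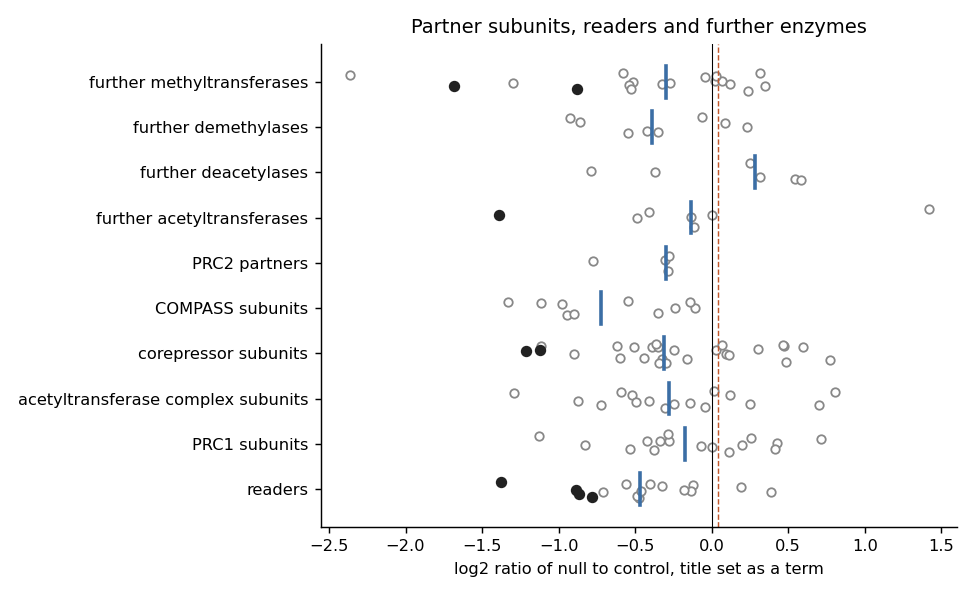
Log2 ratio of null to control (horizontal axis) for 127 partner genes by class, with title set as a term. Filled points are the 9 genes that passed, all below 0, blue bars are class medians, and the dashed line is the median of all tested genes (0.044).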

How the data were processed

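The authors deposited 1 table of whole-number gene counts for each library. Trimmomatic (0.32), TopHat2 (2.1.0), HTSeq (0.6.1), FastQC and edgeR are named, with build mm9, per the submitters' processing notes. Their order and strand setting are not stated there, and 12 of the 51 enzyme genes overlap a counted gene on the opposite strand in GENCODE, with older symbols matched through RefSeq synonyms. Rows that name no gene were left out. For unlettered libraries 6.07% to 42.9% of reads were recorded as without a feature, most in control replicate 1. Symbols that had become dates (25) were mapped back.

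Genes kept by filterByExpr (10512) were scaled by TMM and fitted in R 4.3.3 with edgeR 4.0.16 (glmQLFit with robust=TRUE, glmQLFTest, two-sided, Benjamini-Hochberg at 0.05), with title set and group as terms and 3 residual degrees of freedom (2 for the interaction and 2 with the Y-linked term). SE is the size of the log2 ratio divided by the root of F. Within a title set, log2 ratios were taken between group means of log2 CPM (prior count 2) and not tested. Alternatives were group alone, DESeq2 1.42.0, RLE scaling, no globin genes, no filter, a term for libraries with a Y-linked sum over 1 CPM, and leaving out each library. The fit was tested on simulated data.

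The enzymes, the lists and the choice of fit were made with earlier results of these data known. Full values are given for enzymes that passed, for up to 3 others of highest mean control CPM in each role, and for the called partner genes. Dot1l, Hdac5, Hdac6, Kdm2a and a few paralogs were added after their values were seen. The labels name no separate embryos, so the p-values may in part reflect technical spread between samples. Control replicate 2 differed from 1 and 3 in genotype label, and control replicate 1 from 2 and 3 in Y-linked transcripts. The 3 controls are thus not repeats of 1 sample. The null libraries share a genotype label and all held Y-linked transcripts. No pair of libraries was a duplicate (chi-square per degree of freedom at least 21.9 within groups).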

Additional observations from a re-analysis of the deposited data

How the results depend on the processing

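No paired analysis was possible because the labels give no replicate numbers. The counts above moved with the settings as follows (4 higher and 3 lower enzymes, 0 and 9 partner genes, 909 and 437 of all genes with title set as a term). With group alone 0 and 0 enzymes, 0 partner genes lower, and 120 and 1 of all genes passed. By DESeq2, 9 enzymes, 22 partner genes and 882 of all genes were lower, and 1 partner gene was higher. With RLE scaling 14 partner genes and 520 of all genes were lower. Without globin genes these were 5 enzymes, 15 partner genes and 541 of all genes, and with every gene that had a read 7 enzymes, 20 partner genes and 723 of all genes. With a Y-linked term 0 enzymes were higher and 1 lower (Carm1, and none of the 7), 2 partner genes were lower, and 161 and 62 of all genes passed. Leaving out 1 library gave 1 to 3 higher and 0 to 6 lower enzymes, 2 to 17 lower partner genes, 162 to 869 higher and 40 to 734 lower of all genes, and a median log2 ratio of the enzymes from -0.43 to -0.13, which was -0.055 with group alone. In fits without null replicate 1 or control replicate 3 only 1 title set still compares the groups. The 15 enzymes that differed between title sets were 15 to 19 in the other settings.

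No enzyme that passed changed sign in any setting. Of those that did not pass, the log2 ratio changed sign with group alone for Rbbp7 (0.32), Setd3 (0.24), Setdb2 (0.34), Kdm1a (0.41), Kdm2b (0.24), Hdac2 (0.22) and Hdac8 (-0.012), with a Y-linked term for Rbbp7 (0.063), Ash1l (0.067) and Prmt1 (0.063), and without globin genes for Kdm4b (-0.0053). Leaving out 1 library also changed the sign of some that did not pass, over the ranges -1.12 to 0.24 for Nsd1, -0.077 to 0.054 for Rbbp7, -0.53 to 0.11 for Setdb1, -0.58 to 0.46 for Setdb2, -0.66 to 0.14 for Ash1l, -0.24 to 0.82 for Smyd3, -0.81 to 0.033 for Prmt1, -0.18 to 0.15 for Kdm3b, -0.17 to 0.19 for Kdm4b, -0.10 to 0.53 for Kdm4c, -0.023 to 0.77 for Hdac8 and -0.78 to 0.094 for Hdac11. The cause of these shifts was not tested. With 3 residual degrees of freedom the fit has little precision, so a gene that did not pass is not shown to be alike in the groups.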

Other observations

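Ratios of raw counts between paralogous enzymes within a library do not depend on scaling and are given as values, with no test. The ratio of Ezh2 to Ezh1 counts was 3.54 and 3.56 in unlettered controls against 2.40 for null replicate 1, with 6.62 for the lettered control against 4.91 and 4.17 for its null libraries, lower in null cells in each set. The ratio of Kat2a to Kat2b was 2.30 and 3.17 against 1.46 in the unlettered set and 3.88 against 1.74 and 1.89 in the lettered set, so that all null libraries lay below all controls. The ratio of Kdm5b to Kdm5a was 0.0345 and 0.00228 against 0.163, and 0.0310 against 0.623 and 0.709, so that all null libraries lay above all controls.

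The ratio of Hdac2 to Hdac1 was 0.118 and 0.0626 in unlettered controls against 0.0561 for null replicate 1, with 0.877 for the lettered control against 0.725 and 0.708 for its null libraries, a difference between sets far above that between groups. Rbbp7 to Rbbp4 was 0.401 and 0.411 against 0.583, and 1.42 against 2.04 and 1.54. In the other pairs taken the groups overlapped across sets. Ep300 to Crebbp was 0.402 and 0.442 against 0.498, and 0.942 against 0.400 and 1.11. Suv39h1 to Suv39h2 was 15.8 and 23.9 against 21.2, and 13.9 against 53.0 and 35.4. Ehmt1 to Ehmt2 was 2.57 and 2.70 against 1.51, and 0.932 against 0.725 and 0.563. These ratios are of reads and not of transcripts, since genes differ in length.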
